A study of Mus musculus with 20 samples.

Results

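Microglia sorted from 5XFAD brains were compared with microglia sorted from WT brains, gene by gene, on 1-colour expression arrays. The comparison took the 5 arrays labelled 5XFAD and the 4 labelled WT, 9 of the 20 arrays of the series. Both groups had an intact Trem2 gene. All animals were littermates aged 8.5 months, and 5XFAD mice differ from WT in carrying mutant human amyloid precursor protein and presenilin transgenes, both driven in neurons by a Thy1 promoter, and in accumulating amyloid plaques. Mice were perfused with PBS, brains were dissociated with a commercial kit, and microglia were sorted by flow cytometry into lysis buffer. The gate used for sorting and the animals' sex are not stated in the sources used here, and neither is it stated whether each array came from its own mouse; p-values therefore reflect spread among arrays, which may be technical. A further 10 arrays, 4 of Trem2-/- and 6 of Trem2-/-5XFAD mice, entered only the estimate of the spread between arrays, and 1 array whose title and genotype label disagree was left out.

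Microglia are the resident macrophages of the brain. In the undisturbed brain they survey their surroundings, sense nucleotides through purinergic receptors and hold their identity under TGF-beta and CSF1 receptor signals. Around amyloid plaques they take on a state known as disease-associated microglia (DAM), in which genes of lipid uptake, lysosomal digestion and phagocytosis go up while homeostatic genes go down. TREM2, a lipid-sensing receptor that signals through the adaptor TYROBP, is needed for the full DAM state.

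Values are given as log2(intensity + 1), so that a difference of 1 is a doubling, and differences are 5XFAD minus WT with their standard error. A gene is called when its adjusted p in limma's moderated test, over 12728 tested genes, is under 0.05. Levels of different genes come from different probe sets and are not set against each other. Of the 12 microglial markers listed, 11 were tested, and their mean level lay between 11.3 and 11.5 in WT and between 10.9 and 11.001 in 5XFAD, so the sorted cells carried the label's defining genes in every array. Trem2 read 11.37, 11.36, 11.39 and 11.14 in WT arrays 1 to 4 and 11.80, 11.79, 11.45, 11.67 and 11.66 in 5XFAD arrays 1 to 5, a difference of 0.36 ± 0.13 that did not pass (adjusted p = 0.0731). Tyrobp differed by 0.23 ± 0.08 (adjusted p = 0.0652), also short of the threshold, although in neither gene did the groups overlap. Genes are named by the rule given with the processing. Further list members, named for their role, and the miRNA genes were chosen after their values were seen.

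Some signals divided the arrays within each group. Klk1b22, a salivary gland kallikrein, read 9.25, 9.51, 2.87 and 3.40 in the WT arrays and 8.25, 7.91, 2.79, 2.75 and 3.23 in the 5XFAD arrays, so arrays 1 and 2 of both groups carried a salivary gland signal. Xist, expressed from the inactive X chromosome, was high in 3 of 4 WT arrays and in array 1 alone of the 5 5XFAD arrays. It read 8.61, 3.41, 9.02 and 9.25 in WT and 9.52, 3.27, 3.48, 3.26 and 3.34 in 5XFAD. Xist signal was thus unequal between the groups and is partly confounded with genotype in the full model. Calls were therefore recomputed without WT 1, WT 2, 5XFAD 1 and 5XFAD 2, called the 5-array model below. It kept the Trem2-/- and Trem2-/-5XFAD arrays for the spread. Its WT arrays were all high for Xist and its 5XFAD arrays all low, so Xist signal and genotype cannot be told apart there. The 4-pair model took the array number as a block over arrays 1 to 4 of WT and 5XFAD alone. It left out the Trem2-/- and Trem2-/-5XFAD arrays. Both models rest on fewer arrays. Their values stand beside a result where they move a count by more than 1.5 times or end a call. With the salivary gland signal as a covariate 1110 genes were called higher and 921 lower, and 1870 of the 1909 calls of the full model were kept. With the Xist signal as a covariate 991 were higher and 676 lower, and 1459 were kept.

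The 5XFAD genotype was accompanied by changes in 1909 genes, 15.0% of those tested. Of these, 1047 rose (8.23%) and 862 fell (6.77%), against a median difference over all tested genes of -0.02. The rises were larger: 307 genes rose and 101 fell by at least 1, 87 rose and 2 fell by at least 2, and 27 rose and 0 fell by at least 3. The median called increase was 0.70, the median called decrease -0.59. WT and 5XFAD arrays did not overlap for 774 of the genes that rose and 621 of those that fell, and 13.4% of all tested genes separated the groups in this way. The 4-pair model called 572 higher and 377 lower, and arrays 1 to 4 without the block 656 and 490.

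**Figure D1:**
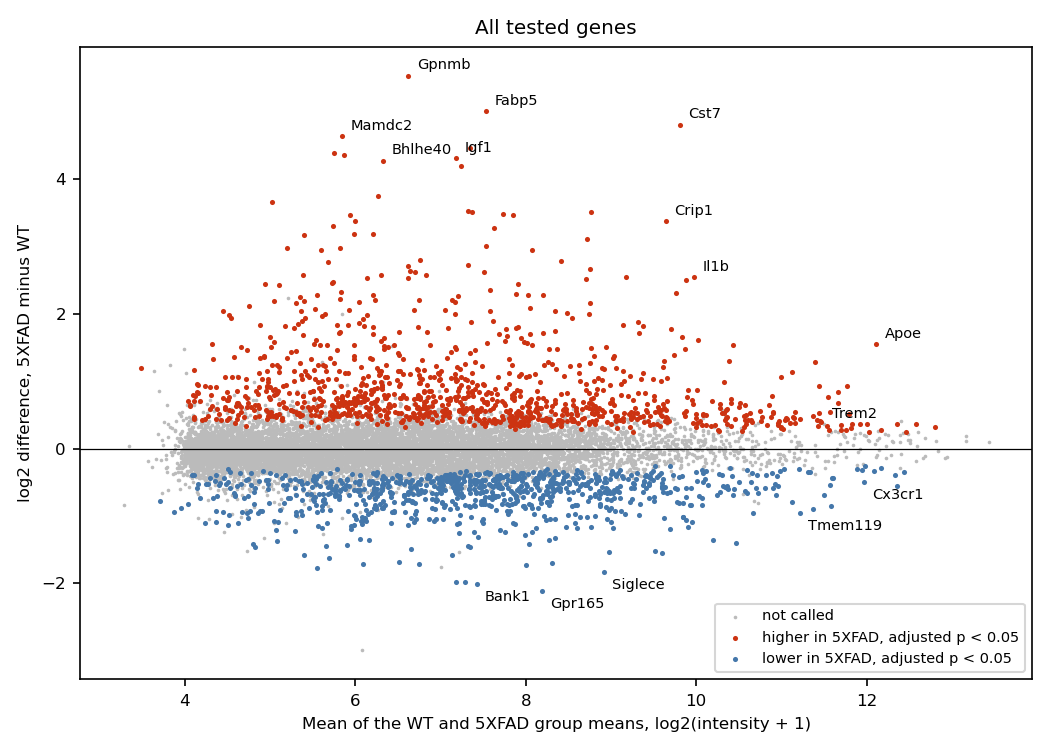
Each point is 1 of the 12728 tested genes, with the mean of the WT and 5XFAD group means on the x axis, as log2(intensity + 1), and the log2 difference, 5XFAD minus WT, on the y axis. Red marks the 1047 genes called higher and blue the 862 called lower; increases reach 5.54 (Gpnmb) and called decreases -2.12 (Gpr165).

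The gene with the largest measured increase was Gpnmb, which encodes a lysosomal and surface glycoprotein. It read 4.12, 3.57, 3.51 and 4.21 in the WT arrays and 9.58, 8.79, 9.24, 9.74 and 9.61 in the 5XFAD arrays. Every 5XFAD array stood far above every WT array, and the level rose by 5.54 ± 0.26 (adjusted p = 5.6e-12). In 3 of the 4 WT arrays Gpnmb counted as low, so the size of its rise depends on the pseudocount and background. Fabp5, a fatty acid carrier, read 4.19, 6.16, 5.004 and 4.77 in WT and 10.19, 9.89, 10.36, 9.96 and 9.83 in 5XFAD. WT arrays spread widely there and 5XFAD arrays lay close together, and Fabp5 rose by 5.01 ± 0.26 (adjusted p = 1.9e-11). Cst7, a cysteine protease inhibitor of the endolysosome, read 7.42, 7.65, 7.25 and 7.28 in WT and 12.19, 12.15, 12.22, 12.28 and 12.21 in 5XFAD. It had the smallest adjusted p of the 10 genes that rose by at least 4, 9.5e-14, with a rise of 4.81 ± 0.17.

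The same 10 genes included Mamdc2, a secreted matrix proteoglycan, which read 3.47, 3.37, 3.67 and 3.58 in WT and 8.64, 8.36, 7.42, 8.44 and 7.97 in 5XFAD and rose by 4.64 ± 0.23. Lpl, the lipoprotein lipase that frees fatty acids from lipoproteins, rose by 4.47 ± 0.18, with means ± SD of 5.11 ± 0.47 in WT and 9.58 ± 0.24 in 5XFAD. Egln3, an oxygen-sensing prolyl hydroxylase and hypoxia target, rose by 4.39 ± 0.32, and Hpse, a heparanase that cuts heparan sulfate, by 4.35 ± 0.18. Igf1, a growth factor, read 5.78, 5.14, 4.98 and 4.21 in WT and 9.57, 9.45, 9.02, 9.58 and 9.10 in 5XFAD and rose by 4.31 ± 0.27. Bhlhe40, a transcriptional repressor of macrophages, rose by 4.28 ± 0.27, and Itgax, which encodes the integrin CD11c, by 4.19 ± 0.17. None of these groups overlapped. Mamdc2, Egln3, Hpse and Atp6v0d2 belong to 34 genes that rose from values that counted as low in every WT array, so the pseudocount and background understate their rise.

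Decreases were shallower. Gpr165, an orphan receptor of microglia, read 9.17, 8.70, 9.38 and 9.73 in WT and 6.76, 6.84, 6.69, 7.41 and 7.94 in 5XFAD and fell by 2.12 ± 0.26 (adjusted p = 5.8e-06). Bank1, a signalling scaffold first known from B cells, read 8.53, 8.07, 8.62 and 8.51 in WT and 6.56, 6.74, 5.94, 6.16 and 6.67 in 5XFAD and fell by 2.02 ± 0.18. These were the only 2 genes past 2 in that direction. Clec4a2, a lectin receptor with an inhibitory motif, fell by 1.99 ± 0.17, and Serpinf1, the secreted serpin PEDF, by 1.98 ± 0.11. Siglece, an inhibitory receptor for sialic acids, read 10.05, 9.75, 9.73 and 9.80 in WT and 7.65, 8.11, 8.61, 7.50 and 8.10 in 5XFAD, and its fall of 1.84 ± 0.18 separated all arrays. Slc40a1, the iron exporter ferroportin, fell by 1.68 ± 0.23, and Pecam1, an adhesion molecule of vessels and myeloid cells, fell by 1.63 ± 0.14.

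**Figure D2:**
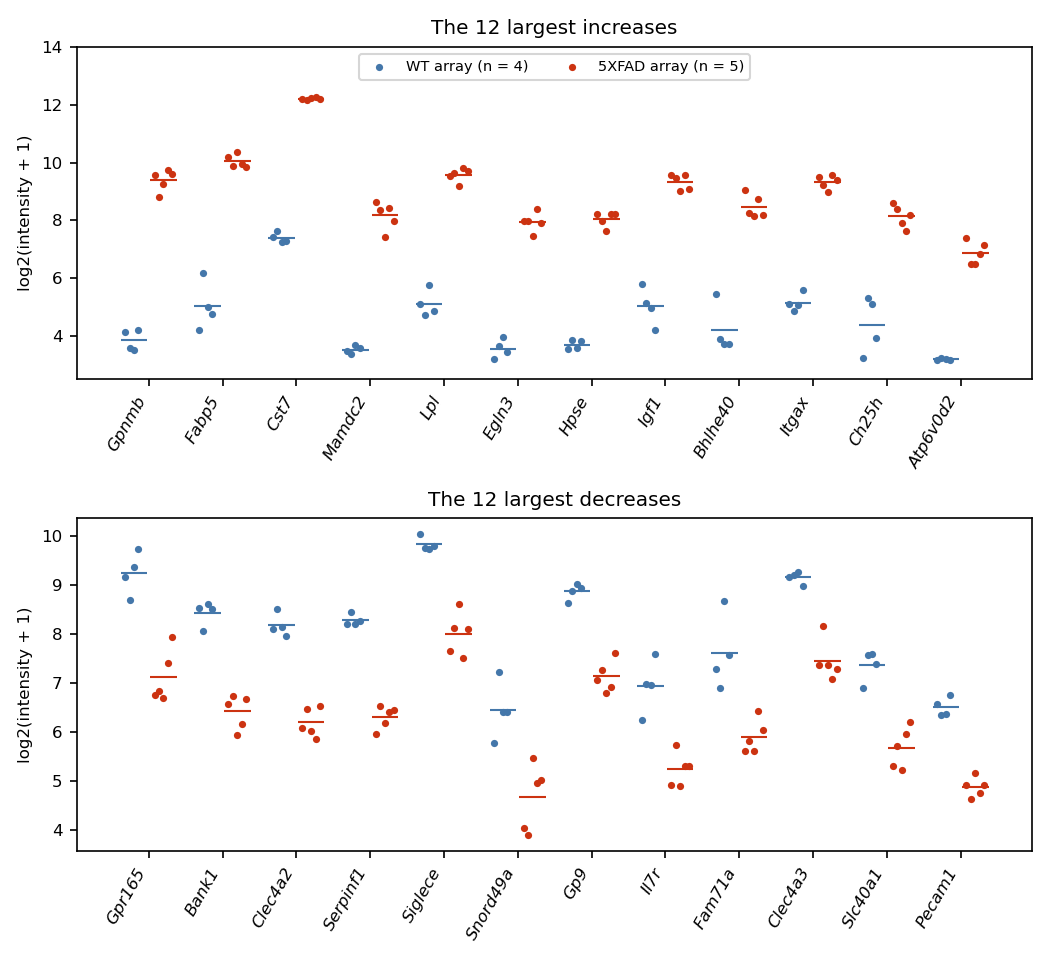
Points are single arrays (blue WT, n = 4; red 5XFAD, n = 5), lines are group means, and the y axis is log2(intensity + 1), for the 12 largest called increases (top) and decreases (bottom). In each of the 24 genes the WT and 5XFAD arrays do not overlap.

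DAM genes and their opposite, the homeostatic genes, were the lists with the largest shares called. Counts of every list stand against 8.23% of all tested genes called higher and 6.77% called lower. Falls in several lists lay near the latter share. Examples are lipid handling (7.89%), lysosomal genes (6.82%), vacuolar ATPase subunits (6.25%) and the MiT/TFE and autophagy list (8%). Of 42 tested DAM genes, 35 rose (83.3%), none fell, and all 42 differences were above 0, with a median of 1.32. This list was drawn up from studies of the same mouse model, so its direction is not independent evidence. Clec7a, the beta-glucan receptor dectin-1, rose by 3.47 ± 0.17, with means of 6.11 ± 0.25 in WT and 9.59 ± 0.34 in 5XFAD. Axl, a receptor tyrosine kinase that recognises dying cells through Gas6, rose by 3.51 ± 0.18, and Csf1, the ligand of the CSF1 receptor, by 2.54 ± 0.13. Apoe, the main lipoprotein of the brain, read 11.60, 11.46, 11.21 and 11.09 in WT and 13.03, 12.91, 12.80, 12.86 and 12.83 in 5XFAD. All 5XFAD arrays were above all WT arrays, and Apoe rose by 1.55 ± 0.14, 2.92-fold. Smaller rises included Ctsb (0.52 ± 0.10), Cd9 (0.54 ± 0.10) and Cd68 (0.37 ± 0.08). The mean level of the list was 8.39 to 8.51 in WT and 10.23 to 10.49 in 5XFAD. In the 4-pair model the calls of Cd9 (adjusted p = 0.0543) and Cd68 (adjusted p = 0.151) were lost, and in the 5-array model those of Cd68 (adjusted p = 0.0549) and Ctsb (adjusted p = 0.059).

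Of 31 tested homeostatic surface and secreted genes, 28 fell (90.3%), none rose, and the median difference was -0.69. This list was chosen with earlier results of these data known, so its share is not independent evidence either. Tmem119, a microglial membrane protein, read 11.51, 11.69, 11.79 and 11.79 in WT and 10.66, 10.83, 10.72, 10.67 and 10.79 in 5XFAD, with no overlap, and fell by 0.96 ± 0.09 (adjusted p = 1.8e-07). P2ry12, the ADP receptor that guides process movement, read 11.31, 11.55, 11.65 and 11.59 in WT and 10.69, 10.92, 10.38, 10.81 and 10.81 in 5XFAD and fell by 0.80 ± 0.11. Crybb1 fell by 1.55 ± 0.13, Upk1b by 1.54 ± 0.21 and Ecscr by 1.36 ± 0.14. Adgrg1, an adhesion receptor also called GPR56, fell by 1.06 ± 0.10, and Slc2a5, a fructose transporter, by 1.17 ± 0.12. Sting1, the cyclic dinucleotide sensor, fell by 1.01 ± 0.11. Smaller falls were seen elsewhere: Cx3cr1, the fractalkine receptor, fell by 0.50 ± 0.08, Siglech by 0.44 ± 0.09 and Sparc by 0.40 ± 0.07. In the 4-pair model 17 of the 31 were called lower, and the calls of Cx3cr1 (adjusted p = 0.0625), Siglech (adjusted p = 0.0672) and Sparc (adjusted p = 0.104) were among those lost. In bulk RNA of a sorted population, fewer cells of one state and less RNA per cell cannot be told apart.

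Among transcription factors that set microglial identity, most were not called. Of 26 tested, 9 fell and 1 rose, with a median of -0.22. Sall1, which represses other macrophage programs, read 10.21, 10.34, 10.30 and 10.54 in WT and 9.47, 9.60, 9.15, 9.69 and 9.65 in 5XFAD and fell by 0.84 ± 0.14. Klf2, a factor that keeps myeloid cells quiescent, fell by 1.01 ± 0.12, Maf by 1.10 ± 0.13 and Smad3 by 0.68 ± 0.12. Bhlhe40, the 1 that rose, read 5.45, 3.89, 3.72 and 3.71 in WT and 9.04, 8.27, 8.13, 8.72 and 8.19 in 5XFAD, and WT 1 stood above the other WT arrays. In those others Bhlhe40 counted as low, so the size of its rise depends on the pseudocount and background. Nfia fell by 0.65 ± 0.09 in the probe set used and differed by 0.11 in another. The count of falls was 5 in the 4-pair model; Smad3 was not called in the 5-array model (adjusted p = 0.0698).

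Of 20 TGF-beta pathway genes tested, 5 fell and 1 rose, with a median of -0.19. Eng, a co-receptor, fell by 1.002 ± 0.11, with means of 8.71 ± 0.11 in WT and 7.71 ± 0.19 in 5XFAD. Tgfbr1, the type I receptor, fell by 0.52 ± 0.10, and Pmepa1 and Smad7, both targets and brakes of the pathway, fell by 0.58 ± 0.13 and 0.45 ± 0.11. The gene that rose was Tgif1, a corepressor of SMADs, by 0.56 ± 0.15. Falls numbered 3 in the 4-pair model, where the calls of Pmepa1 (adjusted p = 0.0667), Smad7 (adjusted p = 0.069) and Tgif1 (adjusted p = 0.0828) were lost; Tgif1 was also lost without WT 3 (adjusted p = 0.0548) and with the Xist covariate (adjusted p = 0.0648).

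Most nucleotide-sensing genes fell. Of 9 tested purinergic receptors and ectoenzymes, 6 fell and 1 rose, and the median was -0.59. P2ry13, an ADP receptor, fell by 0.85 ± 0.11, and P2rx1, an ATP-gated channel, by 1.47 ± 0.26. P2rx7, the channel whose opening starts inflammasome assembly, fell by 0.66 ± 0.13. Entpd1, the ectoenzyme CD39 that degrades ATP, fell by 0.59 ± 0.11, a call lost in the 4-pair model (adjusted p = 0.0542). P2rx4, another ATP-gated channel, read 7.65, 7.49, 7.84 and 7.69 in WT and 8.64, 8.65, 8.86, 8.54 and 8.62 in 5XFAD and rose by 0.99 ± 0.11 (adjusted p = 2.4e-06).

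Genes around TREM2 and the CSF1 receptor did not share a direction. Of 26 TREM2 signalling genes tested, 5 rose and 5 fell. Hcst, the adaptor DAP10, rose by 1.24 ± 0.17, Treml2 by 1.17 ± 0.19, and Fgr, a Src family kinase, by 1.98 ± 0.22, with means of 4.62 ± 0.36 in WT and 6.60 ± 0.43 in 5XFAD. Malt1, a paracaspase that carries ITAM signals to NF-kappaB, rose by 1.02 ± 0.12. Inpp5d, the phosphatase SHIP1 that dampens these signals, fell by 0.49 ± 0.11, Dok3 by 0.93 ± 0.20, Pik3cd by 0.56 ± 0.13, and Syk, the kinase recruited by TYROBP, by 0.38 ± 0.10. Pik3cg, the gamma PI3-kinase of leukocytes, fell by 0.36 ± 0.09. Only 1 fall was called in the 4-pair model, and Inpp5d (adjusted p = 0.0599), Pik3cd (adjusted p = 0.0563), Pik3cg (adjusted p = 0.163) and Syk (adjusted p = 0.111) were lost; Dok3 was lost in the 5-array model (adjusted p = 0.061). With the Xist covariate 3 falls were called, and Syk (adjusted p = 0.0583) and Pik3cg (adjusted p = 0.0534) were lost. In the CSF1 receptor axis, 12 genes tested, Csf1 and Csf2ra rose (1.10 ± 0.17 for Csf2ra) and 3 fell, Csf1r itself by 0.30 ± 0.08. None of those 3 falls was called in the 4-pair model (adjusted p = 0.233 for Csf1r) or with the 9 arrays alone, nor with the Xist covariate (adjusted p = 0.0514 for Csf1r), and 1 was called without WT 3, WT 4, 5XFAD 3 or 5XFAD 5.

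Lipid handling genes rose more often than they fell. Of 38 tested genes, 14 rose and 3 fell, with a median of 0.16. Acaca, which makes malonyl-CoA for fatty acid synthesis, rose by 2.58 ± 0.17, and Fasn, fatty acid synthase, by 0.69 ± 0.15. Ch25h, which makes 25-hydroxycholesterol, read 3.23, 5.31, 5.09 and 3.93 in WT and 8.60, 8.38, 7.92, 7.62 and 8.20 in 5XFAD and rose by 3.75 ± 0.36. It counted as low in WT 1 and WT 4, so the size of its rise depends on the pseudocount and background. Plin2, the coat of lipid droplets, rose by 1.79 ± 0.14, and Hilpda, which restrains their lipolysis, by 1.11 ± 0.17. Apoc1 and Apoc4, neighbours of Apoe on the chromosome, rose by 2.58 ± 0.35 and 0.87 ± 0.16. Fabp3 rose by 1.57 ± 0.20 in the probe set used and by 4.83 in its other probe set. Abca9 fell by 0.71 ± 0.11 and Mgll, which cleaves monoacylglycerols, by 0.65 ± 0.14. Of the falls, 1 was called in the 4-pair model, and Mgll was lost (adjusted p = 0.052).

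All called cholesterol synthesis genes were higher. Of 23 tested, 12 rose, none fell, 21 differences were above 0 and the median was 0.55. Srebf2, the transcription factor that drives the pathway, read 6.41, 6.41, 6.38 and 6.41 in WT and 7.58, 7.38, 7.37, 7.73 and 7.61 in 5XFAD and rose by 1.13 ± 0.12 (adjusted p = 6.8e-07). Cyp51, a demethylase of lanosterol, rose by 1.53 ± 0.18, Sqle, the squalene epoxidase, by 1.35 ± 0.19, and Hmgcs1, which supplies the pathway's first committed intermediate, by 0.94 ± 0.15. Insig1, which holds SREBP in the endoplasmic reticulum, rose by 1.23 ± 0.21. The count was 11 in the 4-pair model and 8 in the 5-array model. A sterol regulatory element spelled TCACNCCAC, sought on both strands in the 250 bases before the gene start, was found in 1 of 19 list members with a RefSeq promoter and in 1.24% of all tested genes with one. That member was Hmgcs1, chr13:119690101-119690350 on the plus strand of GRCm38.p6, shown with the match in capitals because it is the 1 member to hold the letters:
Hmgcs1: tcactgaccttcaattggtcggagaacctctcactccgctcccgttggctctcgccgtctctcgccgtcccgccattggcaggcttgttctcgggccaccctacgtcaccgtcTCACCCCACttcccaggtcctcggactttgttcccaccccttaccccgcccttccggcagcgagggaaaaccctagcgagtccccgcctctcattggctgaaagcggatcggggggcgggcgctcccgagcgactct

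Cathepsins and their inhibitors changed mainly upward: 7 of 15 rose and 2 fell, with a median of 0.16. Ctse, an aspartic protease of endosomes, read 4.51, 4.75, 4.62 and 4.58 in WT and 8.19, 7.62, 7.04, 8.06 and 8.12 in 5XFAD and rose by 3.19 ± 0.21. Ctsz rose by 0.68 ± 0.09, Cstb, a cystatin that inhibits cathepsins, by 0.86 ± 0.14, and Ctsl by 0.45 ± 0.09. Lgmn, the asparagine endopeptidase of lysosomes, fell by 0.33 ± 0.08. The calls of Ctsl (adjusted p = 0.0711) and Lgmn (adjusted p = 0.215) were lost in the 4-pair model.

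Among 44 lysosomal hydrolases and membrane proteins, 15 rose and 3 fell, and the median was 0.25. Several of those that rose encode glycosidases. Gla, alpha-galactosidase, rose by 1.33 ± 0.15, Glb1, beta-galactosidase, by 1.08 ± 0.12, Gusb, beta-glucuronidase, by 1.01 ± 0.12, and Fuca1, alpha-fucosidase, by 0.66 ± 0.11. Galc, which degrades galactosylceramide of myelin, rose by 0.85 ± 0.14, with means of 6.44 ± 0.31 in WT and 7.30 ± 0.12 in 5XFAD. Sgsh, the sulfamidase of heparan sulfate breakdown, went the other way and fell by 1.02 ± 0.15, as did Tmem175, a lysosomal ion channel, by 0.75 ± 0.14. Rises numbered 7 in the 4-pair model and 6 in the 5-array model; Galc was not called in the latter (adjusted p = 0.0505).

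Subunits of the vacuolar ATPase, the pump that acidifies lysosomes, rose in 4 of 16 cases and fell in 1, with a median of 0.14. Atp6v0d2 read 3.17, 3.24, 3.21 and 3.16 in WT and 7.38, 6.49, 6.49, 6.82 and 7.14 in 5XFAD and rose by 3.67 ± 0.18, against 0.75 ± 0.15 for Atp6v1a and 0.47 ± 0.11 for Atp6v1c1. In the 4-pair model 2 rises were called, and Atp6v1c1 was lost there (adjusted p = 0.095) and in the 5-array model (adjusted p = 0.0602). Among 25 MiT/TFE factors and autophagy genes, which direct lysosome formation, 5 rose and 2 fell, with a median of 0.08. Rragd, an mTORC1-regulating GTPase, rose by 1.85 ± 0.22, Atg7 by 0.76 ± 0.12 and Sqstm1, the autophagy receptor p62, by 0.68 ± 0.13. Tfe3 fell by 0.45 ± 0.12, a call lost in the 4-pair model (adjusted p = 0.124), in the 5-array model (adjusted p = 0.288) and without WT 2 (adjusted p = 0.0516). The 4-pair count was 3 higher.

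Of 20 integrin and adhesion genes, 6 rose and 2 fell, with a median of 0.02. Itgax read 5.10, 4.85, 5.06 and 5.58 in WT and 9.50, 9.24, 8.98, 9.58 and 9.40 in 5XFAD, with the groups far apart. Cd44, the hyaluronan receptor, rose by 1.93 ± 0.23, Cadm1 by 1.001 ± 0.12 and Itga5, the fibronectin receptor chain, by 2.05 ± 0.28. Itga9 fell by 1.07 ± 0.15 and Selplg, the P-selectin ligand, by 0.55 ± 0.09. Quantile normalization gave 5 falls, and the count of falls was 4 in the 5-array model and without WT 1.

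Lectin receptors fell more often than they rose. Of 19 C-type lectins and Siglecs tested, 4 rose and 7 fell, and the median was -0.44. Clec4a2 read 8.11, 8.50, 8.13 and 7.96 in WT and 6.08, 6.47, 6.02, 5.85 and 6.53 in 5XFAD, and Clec4a3, from the same gene cluster, fell by 1.71 ± 0.18. Cd33, a sialic acid receptor and Alzheimer risk gene, fell by 0.56 ± 0.11, with means of 10.59 ± 0.13 in WT and 10.03 ± 0.22 in 5XFAD. Klrb1b rose by 2.43 ± 0.26, Siglecf by 0.77 ± 0.17 and Colec12, a scavenger collectin, by 1.04 ± 0.20. The 4-pair model called 4 lower, and Cd33 was not called in the 5-array model (adjusted p = 0.0575).

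Checkpoint receptors also went both ways, with 6 of 21 higher, 4 lower and a median of -0.03. Cd274, the ligand PD-L1, rose by 2.27 ± 0.18, and Pdcd1, its receptor PD-1, read 5.66, 5.25, 4.56 and 5.05 in WT and 7.69, 7.12, 7.22, 7.35 and 7.30 in 5XFAD and rose by 2.21 ± 0.20. Lilrb4a rose by 2.95 ± 0.20, Cd72 by 2.06 ± 0.23 and Cd300lf by 1.83 ± 0.29. Vsir, the checkpoint VISTA, fell by 0.74 ± 0.12, Pirb by 0.94 ± 0.19 and Cd300a by 0.51 ± 0.13, the last lost in the 4-pair model (adjusted p = 0.124) and with the Xist covariate (adjusted p = 0.0872). Under quantile normalization 7 fell, and 2 did in the 4-pair model, with the Xist covariate and with the 9 arrays alone. Of 6 Fc receptor genes, 1 fell and the median was -0.03; Fcgr1 fell by 0.37 ± 0.11, a call lost in the 4-pair model (adjusted p = 0.236), with the Xist covariate (adjusted p = 0.152) and on leaving out WT 3, WT 4, 5XFAD 2, 5XFAD 4 or 5XFAD 5 (highest adjusted p = 0.117).

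Of 20 TAM and other phagocytic receptor genes, 3 rose and 3 fell, with a median of -0.08. Axl read 5.92, 5.79, 5.28 and 5.45 in WT and 9.36, 9.18, 8.46, 9.41 and 9.20 in 5XFAD, every 5XFAD array being above every WT array. Mertk, its relative, differed by -0.24 ± 0.12 (adjusted p = 0.209) and was not called. Scarb1, a lipoprotein receptor, rose by 1.44 ± 0.16, while Elmo1, which couples engulfment receptors to Rac, fell by 0.81 ± 0.09 and Stab1 by 0.98 ± 0.15. In complement, 1 of 13 rose and 1 fell, near the share of all genes, with a median of -0.02. C5ar2 fell by 0.86 ± 0.10 and Cfb, a factor of the alternative pathway, rose by 0.55 ± 0.12, a call lost in the 4-pair model (adjusted p = 0.0672) and the 5-array model (adjusted p = 0.0824). C1qa, which encodes a chain of the initiating complex, differed by -0.02 ± 0.08 (adjusted p = 0.894).

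Toll-like receptors changed in both directions. Of 23 genes, 4 rose and 4 fell, and the median was -0.08. Tlr2, the sensor of bacterial lipopeptides, read 9.97, 9.86, 9.56 and 9.58 in WT and 11.10, 11.01, 10.98, 11.07 and 11.04 in 5XFAD, with no overlap and a tight 5XFAD group, and rose by 1.30 ± 0.10 (adjusted p = 4.1e-09). Cd14, a co-receptor, rose by 0.84 ± 0.12, and Irak3, an inhibitor of the pathway, by 1.09 ± 0.21. Tlr4, the lipopolysaccharide sensor, read 8.43, 8.94, 9.08 and 8.76 in WT and 7.95, 7.73, 7.80, 7.66 and 7.66 in 5XFAD and fell by 1.04 ± 0.16. The endosomal sensors Tlr3 and Tlr9 fell by 0.77 ± 0.13 and 0.68 ± 0.11, and Unc93b1, which escorts endosomal receptors, by 0.59 ± 0.10.

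**Figure D3:**
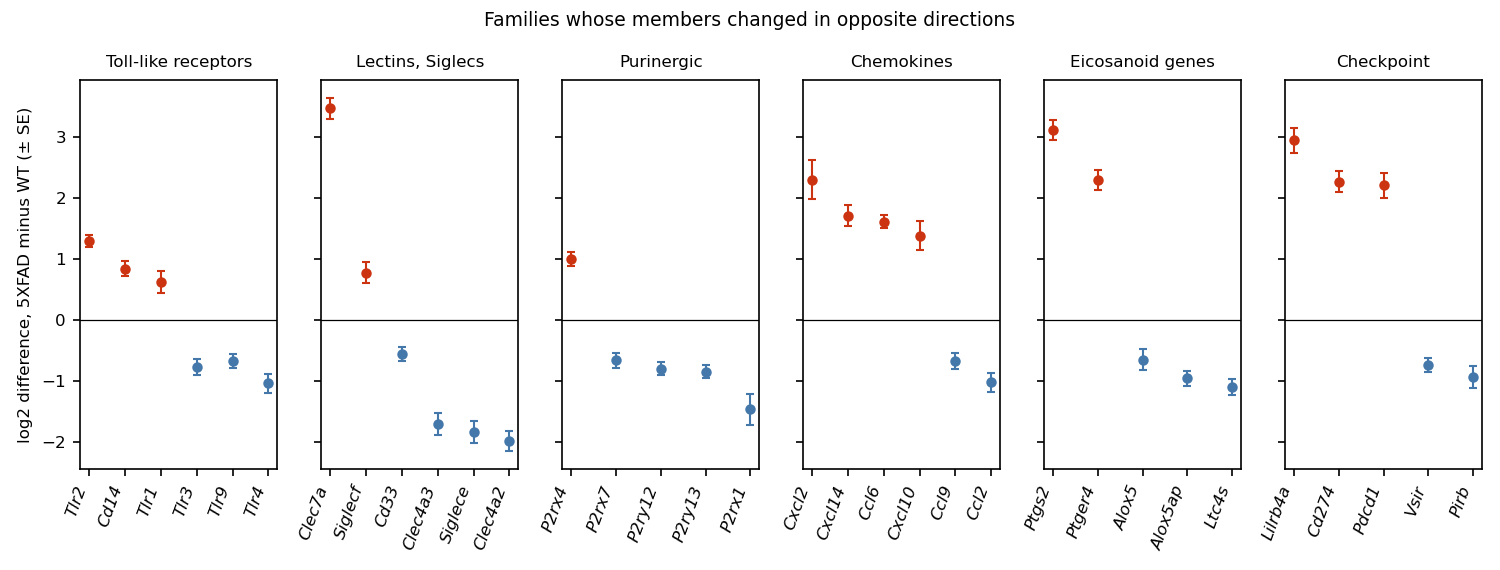
Points are log2 differences, 5XFAD minus WT, with their standard error, for a choice of called members of 6 gene families. Other called members are not shown. Red lies above 0 and blue below. Within each family some members rose and others fell, such as Tlr2 (1.30) and Tlr4 (-1.04).

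Inflammasome and IL-1 genes included 5 of 19 higher and 3 lower, with a median of 0.08. Il1b, the cytokine IL-1beta, read 9.31, 10.04, 7.75 and 7.70 in WT and 11.58, 11.53, 11.13, 11.03 and 10.97 in 5XFAD. WT 1 and WT 2 were higher than WT 3 and WT 4, and every 5XFAD array stood above all of them; Il1b rose by 2.54 ± 0.34 (adjusted p = 1.9e-05). Its natural antagonist Il1rn rose by 1.60 ± 0.21, and Il18bp, which neutralises IL-18, by 0.80 ± 0.12. Nlrp3 rose by 0.77 ± 0.13 and Casp4 by 0.82 ± 0.15, while Casp8 fell by 0.63 ± 0.10.

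Among 34 cytokines and regulators, 7 rose and 6 fell, with a median of 0.01. Tnfsf9, the ligand 4-1BBL, rose by 3.53 ± 0.30 and Tnfsf8, the CD30 ligand, by 2.25 ± 0.23. Il12b, the shared chain of IL-12 and IL-23, read 4.35, 4.59, 4.49 and 4.56 in WT and 7.36, 7.24, 6.48, 6.65 and 7.01 in 5XFAD and rose by 2.45 ± 0.18. Tnf rose by 1.07 ± 0.20 and Osm by 0.74 ± 0.19. Several receptors fell: Ifngr1 fell by 0.84 ± 0.13, Il6ra by 0.73 ± 0.15, Il21r by 0.55 ± 0.13 and Tnfrsf1b by 0.56 ± 0.11. Falls numbered 3 in the 4-pair model, and Tnfrsf1b (adjusted p = 0.0568) and Il16 (-0.59 ± 0.14 in the full model, adjusted p = 0.052) were lost.

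Chemokines also changed in both directions. Of 19 tested, 6 rose and 4 fell, and the median was 0.40. Among the Cxcl genes, Cxcl2 rose by 2.30 ± 0.32, Cxcl14 by 1.71 ± 0.17, Cxcl10 by 1.39 ± 0.23 and Cxcl16 by 1.15 ± 0.15, and Ccl6 rose by 1.61 ± 0.10. Ccl2, the monocyte attractant, read 10.55, 10.52, 10.49 and 9.86 in WT and 9.20, 9.67, 9.42, 8.95 and 9.42 in 5XFAD and fell by 1.02 ± 0.16 (adjusted p = 8.1e-05). Ccl9 fell by 0.67 ± 0.13 and Ccl7 by 1.18 ± 0.32. Falls numbered 2 in the 4-pair model, in the 5-array model and without WT 1; Ccl7 was lost in the first (adjusted p = 0.0606), in the second (adjusted p = 0.582) and on leaving out WT 1 or WT 2 (highest adjusted p = 0.0618), and Ccl9 in the second (adjusted p = 0.0559). Of 8 chemokine receptors, 2 rose and 2 fell, with a median of -0.21; Cxcr4, the CXCL12 receptor, read 6.83, 6.53, 5.71 and 4.88 in WT and 9.83, 9.31, 9.10, 9.70 and 9.41 in 5XFAD and rose by 3.48 ± 0.30. Ccrl2, which binds chemerin, rose by 0.42 ± 0.10, a call lost in the 4-pair model (adjusted p = 0.0891).

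Prostaglandin and leukotriene genes differed in direction. Of 16 eicosanoid genes, 3 rose and 4 fell, with a median of -0.17. Ptgs2, cyclooxygenase-2, read 6.96, 7.77, 7.14 and 6.74 in WT and 10.29, 10.46, 10.32, 10.18 and 10.11 in 5XFAD and rose by 3.12 ± 0.17 (adjusted p = 2.3e-11). Ptger4, a prostaglandin E2 receptor, rose by 2.29 ± 0.16, and Ephx1, an epoxide hydrolase, by 2.07 ± 0.26. The leukotriene genes Ltc4s, Alox5ap and Alox5 fell by 1.10 ± 0.13, 0.96 ± 0.12 and 0.65 ± 0.17. Alox5 was not called in the 4-pair model (adjusted p = 0.0722) or the 5-array model (adjusted p = 0.118), which called 2 falls.

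Of 108 tested genes named as miRNAs, 1 rose (Mir155) and 4 fell, against 8.23% and 6.77% of all genes. The Mir155 probe set read 4.52, 3.88, 4.44 and 4.56 in WT and 7.21, 5.97, 6.02, 6.76 and 6.002 in 5XFAD. It reports RNA of the locus, not the mature miRNA, and rose by 2.04 ± 0.28 (adjusted p = 2.2e-05). Mir142, whose miRNAs mark blood cells, fell by 0.84 ± 0.17, and Mir107, Mir186 and Mir431 fell by 0.44 ± 0.14, 1.10 ± 0.35 and 0.40 ± 0.13. The falls of these 3 were not called in the 4-pair model (adjusted p = 0.0905, 0.0889 and 0.131) or the 5-array model (adjusted p = 0.333, 0.715 and 0.564). They were also lost on leaving out WT 1, WT 2, WT 3 or 5XFAD 4, Mir107 and Mir431 without 5XFAD 3, Mir186 and Mir431 without 5XFAD 1 or 5XFAD 2, and Mir186 without 5XFAD 5 (highest adjusted p = 0.141, 0.16 and 0.107). The call of Mir142 was lost in the 5-array model (adjusted p = 0.0647) and that of Mir107 with the Xist covariate (adjusted p = 0.0557). The mature sequences of the 2 loci best known from macrophages are shown from RefSeq (GRCm38.p6), 5′ to 3′, with the seed, bases 2 to 8, in capitals, because a miRNA pairs with its targets through the seed; the 4 seeds are all different:
mmu-miR-155-5p: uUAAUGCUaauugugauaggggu
mmu-miR-155-3p: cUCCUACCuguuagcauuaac
mmu-miR-142a-5p: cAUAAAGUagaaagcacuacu
mmu-miR-142a-3p: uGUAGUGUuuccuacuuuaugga

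Called genes of the type I interferon response were higher, with 1 exception. Of 43 tested genes, 23 rose, 1 fell, 38 differences were above 0 and the median was 0.61. Oasl2, an oligoadenylate synthetase relative, read 4.61, 4.85, 5.10 and 5.29 in WT and 7.63, 7.29, 6.56, 7.04 and 7.13 in 5XFAD and rose by 2.17 ± 0.23 (adjusted p = 1.0e-06). Ifi27l2a rose by 2.497 ± 0.33, Slfn5 by 1.84 ± 0.20, Zbp1, a sensor of Z-form nucleic acids, by 1.73 ± 0.22, and Ifitm3, which blocks viral entry, by 1.66 ± 0.19. Irf7, the factor that amplifies the response, rose by 0.89 ± 0.17 and Bst2 by 0.87 ± 0.13, whereas the guanylate-binding protein gene Gbp7 fell by 1.13 ± 0.25. The 5-array model called 13 higher. Gbp7 was lost there (adjusted p = 0.0543) and in the 4-pair model (adjusted p = 0.0806), and Ifit3 in the 5-array model (adjusted p = 0.0897); Oas1a, 1.47 ± 0.39 in the full model, was lost in the 5-array model (adjusted p = 0.0738) and without WT 2 (adjusted p = 0.0568).

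An interferon-stimulated response element, spelled as GAAA, any 2 bases and GAAA again, and sought on both strands in the 250 bases before the gene start, was present in 14 of the 31 list members with a RefSeq promoter (45.2%), and in 3.12% of all tested genes with one. Among the list members that rose, 7 of 17 held it (41.2%), a share no higher than the 45.2% of the whole list. The 3 of these with the largest rise, Slfn5, Oas1a and Ifit3, are shown from RefSeq with the matched letters in capitals, read along the gene's strand or, as TTTC, 2 bases and TTTC, against it. They lie at chr11:82951852-82952101 on the plus strand, chr5:120907526-120907775 on the minus strand and chr19:34583279-34583528 on the plus strand of GRCm38.p6, and overlapping matches run together:
Slfn5: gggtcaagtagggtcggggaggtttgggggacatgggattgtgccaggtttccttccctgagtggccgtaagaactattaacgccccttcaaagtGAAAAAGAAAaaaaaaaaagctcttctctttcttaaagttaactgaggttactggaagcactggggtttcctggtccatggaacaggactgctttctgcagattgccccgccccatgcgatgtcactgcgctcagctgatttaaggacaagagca
Oas1a: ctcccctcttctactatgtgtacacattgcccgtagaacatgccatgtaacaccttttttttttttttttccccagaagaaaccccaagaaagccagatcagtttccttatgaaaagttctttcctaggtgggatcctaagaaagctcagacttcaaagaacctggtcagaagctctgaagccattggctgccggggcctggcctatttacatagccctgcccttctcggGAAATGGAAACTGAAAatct
Ifit3: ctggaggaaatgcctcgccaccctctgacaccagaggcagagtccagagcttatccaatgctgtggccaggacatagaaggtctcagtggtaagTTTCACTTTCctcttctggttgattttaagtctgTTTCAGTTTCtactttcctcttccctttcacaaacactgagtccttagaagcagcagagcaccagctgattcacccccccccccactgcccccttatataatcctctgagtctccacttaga

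Called antigen presentation genes were higher in both classes. Of 10 MHC class II genes, 5 rose, none fell and the median was 0.55. Cd74, the invariant chain, read 8.54, 9.19, 9.12 and 8.41 in WT and 10.78, 10.43, 10.77, 10.43 and 10.52 in 5XFAD and rose by 1.77 ± 0.18 (adjusted p = 3.6e-07). H2-Ab1 rose by 1.84 ± 0.27, H2-Aa by 1.71 ± 0.28 and H2-Eb1 by 1.48 ± 0.27. Of 16 class I presentation genes, 6 rose and the median was 0.23, led by Psmb8, an immunoproteasome subunit (0.81 ± 0.12), and H2-M3 (0.90 ± 0.17). Psme2, a proteasome activator subunit, rose by 0.55 ± 0.13 and was lost in the 4-pair model (adjusted p = 0.0732) and the 5-array model (adjusted p = 0.242). The class I count was 3 in the 4-pair model and 2 in the 5-array model.

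Growth and angiogenic factors rose in 11 of 22 tested genes and fell in 2, with a median of 0.41. Flt1, the VEGF receptor 1 that macrophages also express, read 4.16, 3.93, 4.03 and 4.38 in WT and 7.50, 6.93, 6.73, 7.15 and 7.05 in 5XFAD and rose by 2.95 ± 0.15. It counted as low in WT 1, WT 2 and WT 3, so the size of its rise depends on the pseudocount and background. Dkk2, a Wnt antagonist, rose by 2.97 ± 0.14, Vegfa by 1.52 ± 0.18, its co-receptor Nrp1 by 1.25 ± 0.16, and Fgf2 by 0.85 ± 0.15. Plau, the urokinase protease, rose by 1.21 ± 0.21 and its receptor Plaur by 1.81 ± 0.29. Matrix-degrading enzymes and inhibitors rose in 7 of 15 and fell in 2, with a median of 0.45. Mmp12, macrophage elastase, rose by 1.22 ± 0.18 and Adamts1 by 1.001 ± 0.16, while Mmp2 fell by 0.77 ± 0.15.

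Glycolysis and hypoxia genes rose in 14 of 28 and fell in 1, with a median of 0.47. Hif1a, the oxygen-regulated transcription factor, read 8.20, 8.12, 8.07 and 8.39 in WT and 9.81, 9.62, 9.75, 9.80 and 9.51 in 5XFAD and rose by 1.504 ± 0.10 (adjusted p = 9.9e-10). Egln3, its target, read 3.18, 3.64, 3.96 and 3.44 in WT and 7.97, 7.97, 7.47, 8.41 and 7.90 in 5XFAD. Slc2a1, the glucose transporter GLUT1, rose by 1.48 ± 0.13 while Slc2a5, the fructose transporter, was the 1 gene that fell. Several enzymes along the pathway rose, Tpi1 by 1.34 ± 0.12, Pgk1 by 1.19 ± 0.15 and Pkm by 1.13 ± 0.12. Ldha rose by 0.87 ± 0.12 and Aldoa by 0.65 ± 0.10. The hexokinase genes Hk1, Hk2 and Hk3 were tested and not called. Under the 4-pair model 9 of the 28 were called higher.

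Of 41 oxidative phosphorylation genes, 13 rose and none fell, with a median of 0.25; Ndufa1 rose by 1.30 ± 0.19, Cox5b by 0.60 ± 0.09 and Cox6c by 0.54 ± 0.10, the last lost in the 5-array model (adjusted p = 0.0788). That count was 5 in the 4-pair and 5-array models and 8 with the 9 arrays alone or without 5XFAD 1. Of 30 cytosolic ribosomal protein genes, 15 rose and all 30 differences were above 0, with a median of 0.26, Rpl5 by 0.48 ± 0.10, Rps19 by 0.46 ± 0.11 and Rpl13 by 0.37 ± 0.08. None was called in the 4-pair model, 1 in the 5-array model, 5 under quantile normalization and 9 without WT 4; Rpl5, Rps19 and Rpl13 were lost in the first (adjusted p = 0.0755, 0.0886 and 0.135) and the second (adjusted p = 0.0827, 0.102 and 0.0881). Of 31 proteasome genes, 4 rose (12.9%, against 8.23% of all tested genes) and none fell, with a median of 0.17. The share called in either direction lay near the 15.0% of all tested genes. Psmb6 rose by 0.78 ± 0.11 and Psmc6 by 0.46 ± 0.12. The call of Psmc6 was lost in the 4-pair (adjusted p = 0.115) and 5-array models (adjusted p = 0.329). The proteasome count was 1 in the 4-pair and 5-array models and 2 without WT 2 or 5XFAD 3.

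Oxidant and iron genes included 5 of 21 higher and 3 lower, with a median of 0.13. Cybb, the catalytic subunit of the phagocyte NADPH oxidase, read 5.68, 6.67, 5.52 and 6.26 in WT and 9.02, 8.82, 8.88, 9.46 and 8.996 in 5XFAD and rose by 3.001 ± 0.21. Ncf1, a cytosolic subunit of the same oxidase, fell by 0.37 ± 0.09, a call lost in the 4-pair model (adjusted p = 0.147), the 5-array model (adjusted p = 0.0792) and with the Xist covariate (adjusted p = 0.0598). Sod2 rose by 0.96 ± 0.14 and Txnrd1 by 1.03 ± 0.19. Slc40a1 read 6.89, 7.57, 7.58 and 7.39 in WT and 5.29, 5.71, 5.21, 5.96 and 6.20 in 5XFAD. The 4-pair model called 3 higher and 1 lower, and the Xist covariate left 1 lower. Among tetraspanins, annexins and galectins, 8 of 23 rose and 3 fell, with a median of -0.01. Anxa2 rose by 2.77 ± 0.18, Anxa5, which binds exposed phosphatidylserine, by 2.16 ± 0.13, and Lgals3, galectin-3, by 2.004 ± 0.16; Cd82, a tetraspanin, fell by 0.63 ± 0.15, and S100a10, the partner of Anxa2, fell by 1.34 ± 0.25 and was not called in the 5-array model (adjusted p = 0.132). Rises numbered 5 in the 4-pair model.

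Cell cycle genes gave 6 of 29 higher and 1 lower, with a median of 0.26. Cdk6, a G1 kinase, rose by 0.99 ± 0.17 and Tk1, thymidine kinase, by 1.28 ± 0.23 (0.325 in its other probe set), while Ccnd1, the cyclin partner of Cdk6, fell by 0.58 ± 0.12, a call lost in the 5-array model (adjusted p = 0.0652). Mki67 and Top2a, markers of dividing cells, differed by 0.26 ± 0.17 (adjusted p = 0.364) and 0.31 ± 0.23 (adjusted p = 0.431). Rises numbered 2 in the 4-pair model and 3 in the 5-array model. In the integrated stress and survival list, 3 of 26 rose and 1 fell, near the share of all tested genes, with a median of 0.01. Bcl2 rose by 1.65 ± 0.19 and Psat1, of serine synthesis, by 1.71 ± 0.16, whereas the proapoptotic Bid fell by 0.63 ± 0.17, lost in the 4-pair model (adjusted p = 0.0942) and the 5-array model (adjusted p = 0.157). The 5-array model called 7 higher, and 5 were higher and 2 lower without 5XFAD 5.

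Immediate early genes, which respond within minutes and also to tissue dissociation, fell in 10 of 28 and rose in 4, with a median of -0.28. Fos read 11.50, 11.76, 12.04 and 11.97 in WT and 10.53, 11.06, 10.79, 11.23 and 10.99 in 5XFAD and fell by 0.90 ± 0.15. Jun fell by 0.43 ± 0.08 and Rhob by 0.48 ± 0.10. Nr4a3, an orphan nuclear receptor, rose by 1.80 ± 0.18, Maff by 0.85 ± 0.15 and Egr2 by 0.67 ± 0.15. The falls numbered 2 in the 4-pair model, 4 with the 9 arrays alone and 5 in the 5-array model, where 7 rose; Jun (adjusted p = 0.0817) and Rhob (adjusted p = 0.0816) were lost in the first.

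Genes named by human Alzheimer risk loci and expressed in myeloid cells fell more often than they rose, 8 against 2 of 29, with a median of -0.16. Apoe and Treml2 were the 2 that rose. Ms4a6b fell by 1.35 ± 0.18 and was the only called gene of 6 in the Ms4a cluster, whose median was -0.25. Cass4, an adaptor of focal adhesion signalling, fell by 1.04 ± 0.16, Abi3, an actin regulator, by 0.59 ± 0.12, and Bin1, a membrane-bending protein, by 0.49 ± 0.12. The 4-pair model called 4 lower, without Bin1 (adjusted p = 0.0899). Of 21 genes of amyloid precursor processing and degradation, 2 rose and 2 fell, near the share of all genes, with a median of 0.01. Aplp2, a relative of the amyloid precursor, read 7.61, 7.66, 7.08 and 7.56 in WT and 9.36, 9.21, 8.84, 9.46 and 9.21 in 5XFAD and rose by 1.74 ± 0.14. App itself differed by 0.15 ± 0.11 (adjusted p = 0.42), and Adam10, the alpha-secretase, fell by 0.51 ± 0.11, a call lost in the 4-pair model (adjusted p = 0.091). Without WT 1 the amyloid list held 1 rise and 1 fall, and without WT 3 or 5XFAD 4 it held 1 rise.

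**Figure D4:**
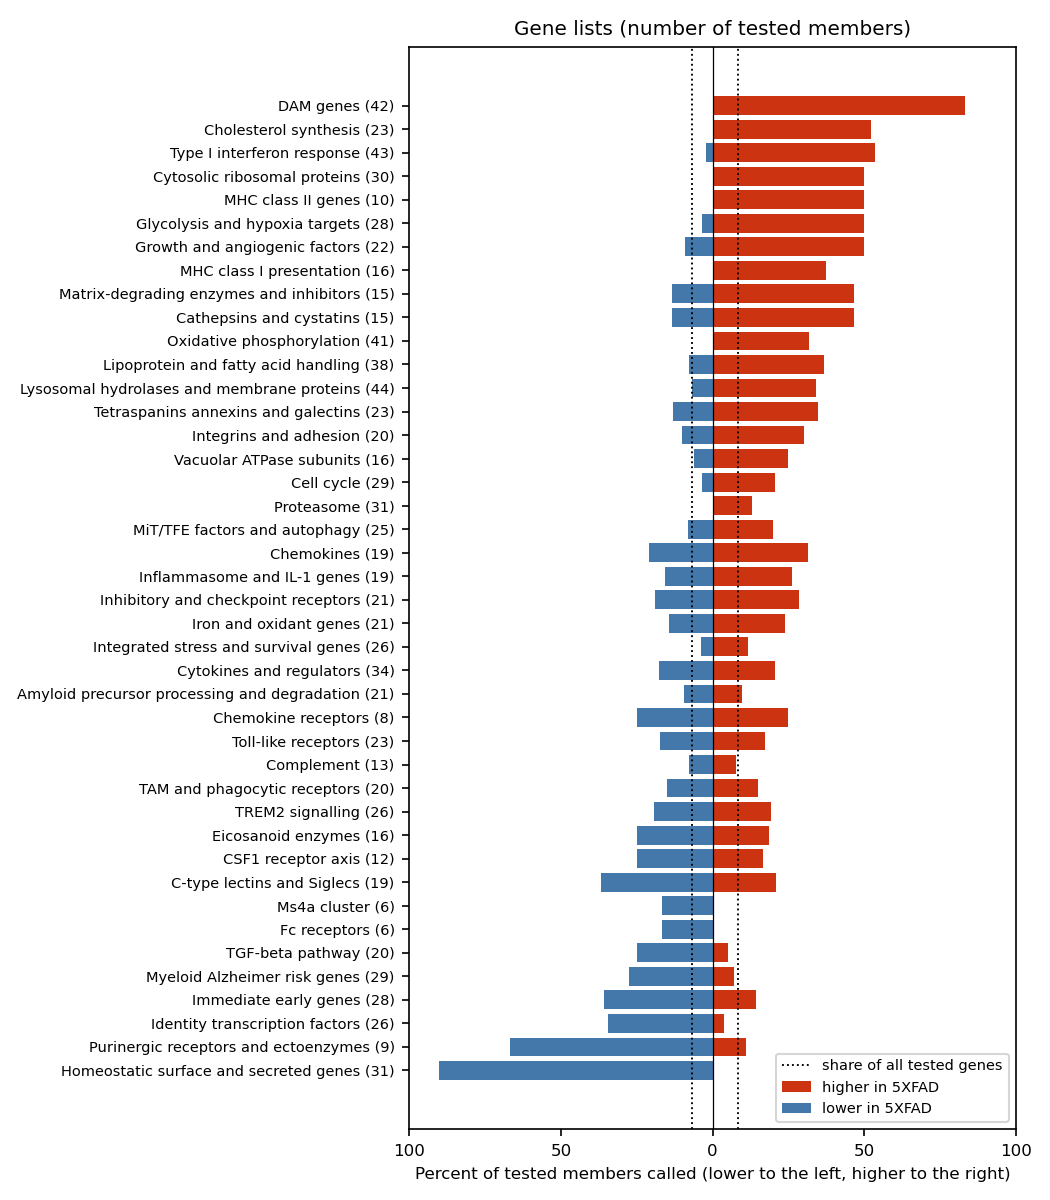
Bars give the percent of the tested members of each gene list called higher (red, right) or lower (blue, left) in 5XFAD, with the number tested in parentheses; dotted lines mark the share of all tested genes, 8.23% higher and 6.77% lower. DAM genes (83.3% higher) and homeostatic genes (90.3% lower) have the longest bars. The lists were chosen with earlier results of these data known.

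Many large changes lay outside the lists. Cox6a2, a cytochrome oxidase subunit best known from muscle, read 7.82, 5.81, 7.54 and 6.86 in WT and 10.81, 10.60, 10.32, 10.45 and 10.41 in 5XFAD and rose by 3.51 ± 0.27. Crip1, a small LIM protein, read 8.34, 8.05, 7.79 and 7.65 in WT and 11.54, 11.35, 11.13, 11.32 and 11.31 in 5XFAD and rose by 3.38 ± 0.16. Etl4 rose by 3.47 ± 0.21, Rab7b, a lysosomal GTPase that lowers Toll-like receptor signalling, by 3.38 ± 0.22, and Cd69, an early activation antigen, by 3.30 ± 0.29. The unconventional myosins Myo1e and Myo5a rose by 3.27 ± 0.19 and 3.18 ± 0.23, and Cd200r4, of the CD200 receptor family, by 3.17 ± 0.39. Downward, Gp9, a platelet glycoprotein gene, fell by 1.74 ± 0.16, with means of 8.87 ± 0.17 in WT and 7.13 ± 0.32 in 5XFAD. Il7r fell by 1.72 ± 0.23, Tmem204 fell by 1.58 ± 0.19, Slc13a3, a dicarboxylate transporter, by 1.49 ± 0.16, and Lst1 by 1.52 ± 0.15. Fam71a fell by 1.71 ± 0.29, Rnase12, of the ribonuclease A family, fell by 1.58 ± 0.31, and the small nucleolar RNA gene Snord49a fell by 1.78 ± 0.36.

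Markers of other cells were mostly low, with exceptions that moved with the genotype. Gfap, the intermediate filament of astrocytes, read 4.23, 4.23, 4.03 and 4.38 in WT and 6.45, 7.08, 5.96, 6.12 and 6.29 in 5XFAD and rose by 2.16 ± 0.18 (adjusted p = 2.9e-08), and S100b rose by 1.501 ± 0.32. Gfap counted as low in WT 1 and WT 3, so the size of its rise depends on the pseudocount and background. Slc1a3, a glutamate transporter, fell by 0.73 ± 0.17, lost in the 5-array model (adjusted p = 0.101), and Glul, glutamine synthetase, by 0.55 ± 0.11, lost in the 4-pair model (adjusted p = 0.0568). In all, 2 of 10 tested astrocyte markers rose and 2 fell, while Aqp4 and Aldh1l1 did not reach the level needed for testing. The part of astrocyte RNA in other results was not tested. The mean of the astrocyte list lay at 5.40 to 5.58 in WT and 5.69 to 5.97 in 5XFAD. Of 10 oligodendrocyte lineage markers 2 rose: Cspg4, the precursor proteoglycan NG2, by 0.75 ± 0.12, and Mbp of myelin by 0.53 ± 0.12, a call lost in the 4-pair model (adjusted p = 0.0694) and the 5-array model (adjusted p = 0.0966); the other myelin genes Mog, Mag, Cnp and Mobp were not called. Of 5 tested neuronal markers, Snap25 differed by 0.03 ± 0.20 (adjusted p = 0.958), and Map2 rose by 0.46 ± 0.14, a call lost on leaving out WT 1, WT 3, WT 4, 5XFAD 1, 5XFAD 2 or 5XFAD 5 (highest adjusted p = 0.0674), in the 4-pair model (adjusted p = 0.154), in the 5-array model (adjusted p = 0.167) and with the Xist covariate (adjusted p = 0.0613). Of 8 vascular markers, Flt1 rose and Pecam1 fell, and Cldn5 was not above the level for testing.

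Border macrophages, which line vessels and meninges, share many genes with microglia. Of 17 markers, 5 fell, Cd209f by 1.22 ± 0.31, and the median was -0.72. Stab1 and Maf, which fell, are among them. Mrc1, the mannose receptor, read 7.57, 7.97, 7.46 and 6.91 in WT and 5.46, 5.81, 6.94, 6.95 and 6.97 in 5XFAD, falling by 1.05 ± 0.30 with overlap, and Pf4 fell by 1.04 ± 0.31. The marker list lay at 5.51 to 6.39 in WT and 4.93 to 5.50 in 5XFAD. In the 5-array model its median was -0.09 and 2 fell; the calls of Cd209f (adjusted p = 0.457), Mrc1 (adjusted p = 0.701) and Pf4 (adjusted p = 0.796) were lost there. Mrc1 (highest adjusted p = 0.0763) and Pf4 (highest adjusted p = 0.111) were also lost without WT 2, 5XFAD 1 or 5XFAD 2, Pf4 also without WT 1, and both in the 4-pair model (adjusted p = 0.0913 and 0.0809). The count was 3 without WT 2, 5XFAD 1 or 5XFAD 2 and 8 without WT 4. Their part in the lower Stab1 and Maf, and in the homeostatic and lectin lists, was not tested. S100a8, of neutrophils, read 4.97, 3.62, 5.79 and 4.98 in WT and 7.14, 6.24, 8.99, 7.08 and 4.78 in 5XFAD, overlapping widely (2.004 ± 0.84, adjusted p = 0.122). Of 5 tested monocyte markers only Anxa2 rose, and Ccr2 was not above the level for testing. Cd3e of T cells differed by -0.04 ± 0.13 (adjusted p = 0.898), and of 9 neutrophil markers 0 were called. Klrd1 of natural killer cells fell by 1.42 ± 0.43, lost on leaving out WT 2, WT 4, 5XFAD 1 or 5XFAD 2 (highest adjusted p = 0.116) and in the 5-array model (adjusted p = 0.249), and Cd79b of B cells by 0.60 ± 0.20, lost without any of WT 1, WT 3, WT 4, 5XFAD 3, 5XFAD 4 and 5XFAD 5 (highest adjusted p = 0.162) in the 4-pair model (adjusted p = 0.169), and with the Xist (adjusted p = 0.3) or salivary gland covariate (adjusted p = 0.0554).

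Several called members, most of them against their list's main direction, lost their call when 1 array was left out. Tfeb, the relative of Tfe3 that drives lysosomal genes, fell by 0.35 ± 0.11 and was lost without any 1 of 7 of the 9 arrays, WT 4 and 5XFAD 5 being the exceptions (highest adjusted p = 0.128). Pla2g15, a lysosomal phospholipase, fell by 0.59 ± 0.19 and was lost without any single array but WT 1 (highest adjusted p = 0.113). Nlrp1a, an inflammasome sensor, fell by 0.53 ± 0.17, lost without WT 2, WT 4, 5XFAD 1, 5XFAD 4 or 5XFAD 5 (highest adjusted p = 0.113). Igfbp4, which binds insulin-like growth factors, fell by 0.61 ± 0.19, lost without WT 1, WT 2, WT 3, 5XFAD 1, 5XFAD 3 or 5XFAD 4 (highest adjusted p = 0.117).

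Further such calls depended on fewer arrays. Socs3, a brake on cytokine signalling, fell by 0.57 ± 0.18, lost without WT 3, WT 4, 5XFAD 3 or 5XFAD 5 (highest adjusted p = 0.13). Ncoa4, the ferritin autophagy receptor, fell by 0.38 ± 0.11, lost without WT 2, WT 4, 5XFAD 3 or 5XFAD 4 (highest adjusted p = 0.0888), and Atp6v0a2 fell by 0.50 ± 0.15 (-0.122 in its other probe set), lost without WT 3, WT 4, 5XFAD 1 or 5XFAD 5 (highest adjusted p = 0.0925). Nr4a2, an orphan nuclear receptor, rose by 0.48 ± 0.15, lost without WT 3, WT 4, 5XFAD 2 or 5XFAD 4 (highest adjusted p = 0.103). Cpt2, of mitochondrial fatty acid import, fell by 0.47 ± 0.14, lost without WT 2, 5XFAD 2 or 5XFAD 4 (highest adjusted p = 0.0743), and Ctsf fell by 0.50 ± 0.15, lost without WT 3, 5XFAD 1 or 5XFAD 3 (highest adjusted p = 0.105).

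Of the rest, Ccl24, an eotaxin, fell by 1.02 ± 0.29, lost without WT 1 or 5XFAD 3 (highest adjusted p = 0.0774). Cd80, a costimulatory ligand, fell by 0.65 ± 0.18, lost without WT 1 or WT 2 (highest adjusted p = 0.0654), and its other probe set differed by -0.009. Cmklr1, the chemerin receptor, fell by 0.59 ± 0.15, lost without WT 3 (adjusted p = 0.0553), and Tgfa, a ligand of the EGF receptor, by 0.58 ± 0.16, lost without WT 2 (adjusted p = 0.0657). Lgals9, galectin-9, fell by 0.38 ± 0.11, lost without WT 4 (adjusted p = 0.0505), and Aph1b, a gamma-secretase subunit, by 0.53 ± 0.14, lost without WT 1 (adjusted p = 0.0502). The proteasome gene Psma1 rose by 0.41 ± 0.12, lost without WT 1, WT 2 or 5XFAD 3 (highest adjusted p = 0.087). Of these 17 genes, Pla2g15 and Tgfa were called in the 4-pair model (adjusted p = 0.0425 and 0.0458) and the others were not (adjusted p = 0.0512 to 0.263). In the 5-array model Socs3, Nr4a2, Cmklr1, Ncoa4, Ctsf and Ccl24 were called, and the others were not (adjusted p = 0.0782 to 0.506). With the Xist covariate, Lgals9 (adjusted p = 0.0501), Cd80 (0.0642), Pla2g15 (0.0687), Ncoa4 (0.0761), Cmklr1 (0.0764), Igfbp4 (0.0783), Ctsf (0.113), Ccl24 (0.14), Nr4a2 (0.147) and Socs3 (0.167) were not called. Counts of small lists moved too: complement had 2 falls without WT 1 or 5XFAD 3, the interferon response 2 without WT 1, the Ms4a cluster 2 without 5XFAD 3 and 1 rise without 5XFAD 1, and vascular cells 2 falls without WT 1 or WT 3.

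**Figure D5:**
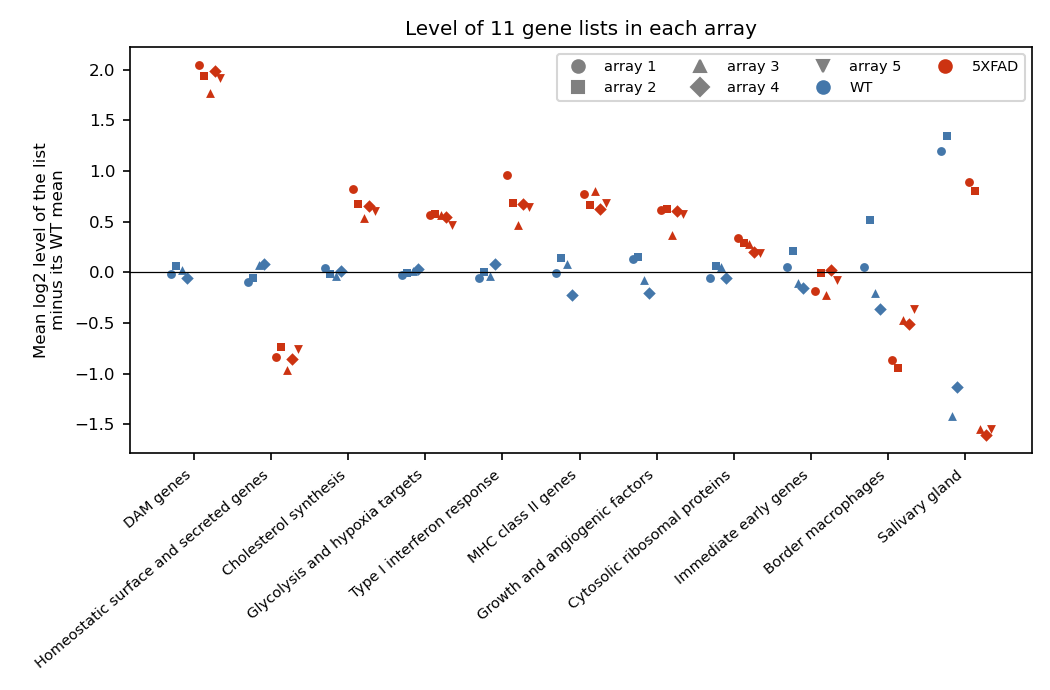
Points are the mean log2 level of a list's members on the array, tested or not, in 1 array, minus the mean of the 4 WT arrays, for 11 lists. Blue is WT, red is 5XFAD and the marker shape is the array number. DAM and homeostatic levels separate the genotypes, immediate early levels overlap, and salivary gland levels separate arrays 1 and 2 from the others.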

How the data were processed

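Biotinylated cRNA was prepared from total RNA of sorted microglia and hybridised to 1-colour arrays, per the labels' protocols. The authors deposited 1 linear intensity per probe set and array; array medians of 25.7 to 28.6 show a near-common scale, though background correction, normalization and software are not stated in the sources used here. No depth applies; the number of arrays limits precision.

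Values were taken as log2(intensity + 1). Of 24679 probe sets, 21354 name 1 gene in the platform annotation, 1275 several and 2050 none; 21277 matched RefSeq (GRCm38.p6). The probe set with the highest mean stood for a gene, and genes above an array's 40th percentile in at least 4 of 19 arrays were kept. limma 3.58.1 in R 4.3.3 fitted 1 model over 19 arrays of 4 genotypes (15 residual and 5.29 prior degrees of freedom, median standard error 0.146), with the contrast 5XFAD minus WT and Benjamini-Hochberg adjustment over 12728 genes. The fit was tested on simulated data. The 9 arrays correlated at 0.970 to 0.991, and none held the values of another.

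Same-numbered WT and 5XFAD arrays deviated together (correlations 0.113, 0.135, 0.120 and 0.174). Arrays 1 and 2, and arrays 3 and 4, also went with each other. WT 1, for example, correlated at 0.113 with 5XFAD 2 as well, so the numbers mark no unique pairs. The full model therefore held no block, and only the alternatives with a block used the numbers. The comparison and the 42 gene lists, which hold 972 genes (86 on several lists), were chosen with earlier results of these data known. Named genes are Trem2, Tyrobp, the 12 largest called changes each way, the 3 smallest p of each list with any called member against its main direction, the 8 largest off the lists each way, and defining markers of other cells. Promoters are the 250 bases before RefSeq starts. Alternatives were other sample sets, pseudocounts, filters, scalings, probe set rules, covariates, a block and single arrays left out.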

Additional observations from a re-analysis of the deposited data

Results flagged for a closer look

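For each named gene, the array at either end of its group was compared with the others. In 26 of 432 groups the gap to the nearest other array, divided by the group's range, passed Dixon's critical value, which by its construction about 1 in 20 groups would pass by chance. Of these, 2 concern Xist, which read 3.41 in WT 2, below the other WT arrays, and 9.52 in 5XFAD 1, above the other 5XFAD arrays.

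In the WT group, 11 further values stood apart. WT 1 was high for Bhlhe40 (5.45), Cyp51 (6.20) and Lgals3 (6.52) and low for Cox5b (9.19). WT 2 was high for Lilrb4a (7.43) and Map2 (4.80). WT 3 was low for Aplp2 (7.08) and high for Cspg4 (4.50). WT 4 was low for Trem2 (11.14), where the other 3 lay between 11.36 and 11.39, low for Ccl2 (9.86) and high for Ncf1 (9.88).

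In the 5XFAD group, array 2 was high for Clec4a3 (8.16) and low for Rab7b (7.17), Acaca (7.22) and Tlr9 (8.27). Array 3 was low for Eng (7.38), Pik3cg (8.35), Sqstm1 (10.65), Cadm1 (9.14), Cd300a (7.94), Axl (8.46), Ephx1 (7.37) and Map2 (4.59), and high for Gbp7 (7.13). Axl of array 3 lay below the 9.18 to 9.41 of the other 5XFAD arrays and above every WT array.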

How the results depend on the processing

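None of the alternatives turned the direction of a named call. With the replicate number as a block over arrays 1 to 4 of each group, 572 genes were higher and 377 lower, against 1047 and 862; 915 of the calls were shared, and the same arrays without the block gave 656 and 490. Arrays without high Xist signal gave 484 and 372, and arrays with it 316 and 128. Arrays 1 to 4 without the block, both Xist sets and a block over all 19 arrays (1005 and 781) were chosen after seeing the data. The first 3 of these hold fewer samples. Leaving out 1 array gave 916 to 1037 higher and 721 to 886 lower. Quantile normalization gave 961 and 1073, or 47.2% higher against 54.8%. The Xist covariate left 991 and 676, the salivary gland covariate 1110 and 921, the 9 arrays alone 781 and 614, and the 5-array model 730 and 713. The other alternatives gave 992 to 1126 higher and 826 to 917 lower. Of the 1909 calls, 1908 kept their direction in the 5-array model and with probe sets averaged, 1896 without high Xist, 1905 with it, 1712 (all of those tested) at the 60th percentile, and all 1909 under each of the others. The block over arrays 1 to 4 ended the call of 47 named genes and brought 1 uncalled named gene to a call. Pseudocount 16 and leaving out 5XFAD 5 each brought 2 uncalled named genes to a call. Where an alternative moved a count, the cause was not tested. Low probe sets limit what could be tested, and near-identical genes can share probes.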

Other observations

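Within the WT group, 29 called genes varied with a standard deviation of at least 0.8, of which 25 were higher and 4 lower in 5XFAD, whereas 5 called genes varied as much within the 5XFAD group. The highest WT value of these genes was in WT 2 for 18 and in WT 1 for 8, and the lowest in WT 4 for 13 and in WT 3 for 8. Bcl6, a transcriptional repressor, read 9.30, 9.05, 7.28 and 7.27 in WT 1 to 4 and between 9.05 and 9.32 in 5XFAD. Cd83, an activation marker, read 11.73, 11.95, 10.19 and 10.02 in WT and between 11.86 and 11.95 in 5XFAD. In both genes WT 1 and WT 2 stood near the 5XFAD values and WT 3 and WT 4 below it. Hcar2, the receptor of ketone bodies and niacin, read 7.40, 6.61, 4.95 and 5.83 in WT and at least 8.32 in every 5XFAD array. WT 1 and WT 2 also carried the salivary gland signal. With that signal as a covariate in limma's model, Bcl6 rose by 1.06 ± 0.24 (adjusted p = 0.0044), Cd83 by 1.02 ± 0.24 (adjusted p = 0.0052) and Hcar2 by 2.72 ± 0.39 (adjusted p = 3.8e-05). The covariate gives WT 1, WT 2, 5XFAD 1 and 5XFAD 2 a shared effect. It therefore cannot adjust for the split of Bcl6 and Cd83, which was seen in WT alone. Bcl6, Cd83 and Hcar2 were chosen after their values were seen.

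Neighbouring genes with the same call were found in 4 runs of 4 tested genes each. H2-Ob, H2-Ab1, H2-Aa and H2-Eb1 on chromosome 17 rose, as did Alcam, Nfkbiz, Nxpe3 and Rpl24 on chromosome 16. Pip4p1, Pnp, Rnase12 and Rnase6 on chromosome 14 fell, as did Zfp710, Idh2, Sema4b and Cib1 on chromosome 7.

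The array left out for its conflicting labels read 11.08 for Trem2, 9.44 for Xist and 2.64 for Klk1b22. Its mean over the DAM list was 8.48, over the homeostatic list 10.79 and over the border macrophage markers 6.70.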
